A study of Mus musculus with 24 samples.

Results

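The transcriptome of wild-type mouse liver was set against that of brain, heart and skeletal muscle from the same 3 animals. The members are 12 of the 24 arrays of the series, defined by their tissue and genotype labels: 3 liver arrays and 9 arrays of the other tissues, 3 each. Each array measured 1 RNA sample in 1 colour on an Agilent whole-genome gene expression array. The 3 wild-type mice were females of 14 or 15 months, called here D, E and F by rising animal number. They were littermates of mice with a Rap1 knockin allele, I312R, on a background backcrossed to C57BL/6N. Rap1 (gene symbol Terf2ip) is a protein of the telomere-capping shelterin complex. The other 12 arrays came from the same tissues of 3 female Rap1 knockin mice of the same ages, A, B and C, and serve below in the choice of each gene's probe and as 3 further animals for comparison. The 3 animals of a genotype are separate mice, and each contributed all 4 tissues. Bulk RNA was measured, so that fewer cells of a type and less RNA per cell cannot be told apart.

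The liver makes most proteins of blood plasma, clears and modifies foreign compounds, makes bile, and keeps blood glucose, ammonia and lipids within bounds between meals. Most of these tasks belong to hepatocytes, which fill most of the organ, while Kupffer cells, sinusoidal endothelial cells, stellate cells and bile duct cells make up the rest. Hepatocyte genes are held on by a network of transcription factors in which HNF4A, the FOXA proteins and C/EBP proteins bind many of the same promoters. For many metabolic steps the liver uses its own enzyme, and muscle, heart and brain use another encoded by a different gene.

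A level below is the log2 processed signal of a probe minus the 75th percentile of its array, so that 0 is the signal of a moderately bright probe. Values are printed for mice D, E and F in that order, and errors are SDs over 3 mice unless an SE is named. A difference is a log2 difference of mean levels, tested with limma across 17093 genes and called at a Benjamini-Hochberg adjusted p under 0.05. Levels of different probes are not comparable with each other, since each probe has its own response. Where every array of a group left a gene at background, its fold is a lower bound, written "at least", that is set against the dimmest signal called well above background on each array of that group, or the gene's own signal where that was higher.

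The wild-type arrays had 75th percentiles of 406 to 2519 signal units, and 49.4% to 68.4% of their probes were well above background. The liver array of mouse E was the dimmest of the 3 livers, with a 75th percentile of 545.7 and 49.4% of probes well above background. Liver arrays correlated with each other at r = 0.983 to 0.986 over the tested genes, and a liver with another tissue at 0.509 to 0.703. All 3 liver arrays lay on 1 slide together with the brain array of mouse D, the heart arrays lay on the other slides, and the muscle arrays on 1 slide of their own with a heart array. Among the wild-type arrays, liver therefore shared a slide only with that brain array. Brain and liver RNA came from 1 extraction kit and heart and muscle RNA from another, so that for liver against heart or muscle the kit and the tissue cannot be told apart. The tissue labels were borne out by their markers. The 11 hepatocyte markers had a summed signal, in multiples of the array's 75th percentile, of 2262 to 3895 in liver. That sum was 42.6 to 124.8 on brain arrays, 1.84 to 2.61 on heart arrays and 0.780 to 1.95 on muscle arrays. The brain sums contain Ttr, which the choroid plexus of the brain also makes. The 10 skeletal muscle markers summed to 0.653 to 0.834 in liver against 5608 to 6536 in muscle, and the 10 heart markers to 1.84 to 2.41 in liver against 1247 to 1633 in heart.

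Alb, which encodes serum albumin, had levels of 9.02, 10.21 and 9.30 in the livers. The brain levels were -7.11, -1.0 and -0.82, the heart levels -6.10, -7.15 and -6.76, and the muscle levels -6.12, -1.86 and -4.84. The 3 livers were far above all other arrays, and the brains of mice E and F and the muscle of mouse E stood apart from the other 6 arrays. On those 3 arrays Alb was well above background, and on the other 6 it was not. Liver exceeded the mean of the 3 tissues by 14.15 (SE 1.26, adjusted p = 1.8e-06) and brain, the nearest tissue, 5738-fold. That fold rests on a brain mean that includes the array of mouse D at background, and without this array it was 1371-fold, without the brain of mouse E 11380-fold and without that of mouse F 12110-fold. Serpina1a, which encodes an alpha-1-antitrypsin, had levels of 8.69, 9.72 and 9.0 in liver. Brains had -3.91, -0.15 and 0.25, hearts 0.11, 0.06 and 0.89, and muscles -2.86, -0.34 and -2.71. The excess over heart, the nearest tissue, was 441-fold. For each other tissue, the 100 genes with the largest excess of liver over that tissue were taken, among genes detected on all 3 livers. Of its 100, 57 were well above background on each of the brain arrays of mice E and F. The heart array of mouse D had 20 and the muscle array of mouse E 17, against 2 to 9 on the other 5 arrays. Their median level on those 9 arrays was 0.00517% to 0.0146% of the level in liver, low in part because the genes were chosen for a large difference. The source of this low signal was not tested, and its size bears on which genes count as detected in liver alone.

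Terf2ip itself, the gene mutated in the knockin mice, had levels of 0.94, 0.49 and 0.56 in wild-type liver. The brain arrays gave 1.01, 1.46 and 1.16, the heart arrays 0.52, 0.46 and 0.65, and the muscle arrays 0.91, 0.99 and 0.87. The liver values overlapped those of heart and muscle and lay below those of brain. The difference from the mean of the other tissues was -0.23 (SE 0.13, adjusted p = 0.119), which did not pass the test. Without the liver of mouse D it was -0.37 (adjusted p = 0.026), and with slide as a block 0.11, so no direction is given.

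Genes differed between liver and the other tissues over most of the array. Against the mean of the 3 tissues, 6068 genes were higher in liver, 35.5% of those tested, and 7280 were lower, 42.6%. The median difference over all genes tested was -0.16, so a list whose median lies near that value does not stand apart from the array as a whole. Against brain 7232 genes (42.3%) were higher and 6336 (37.1%) lower, against heart 5472 (32%) and 6263 (36.6%), and against muscle 5666 (33.1%) and 6864 (40.2%). Which direction held more calls depended on the scaling. With the median of each array as the scale, the share of calls that were higher in liver went from 45.5% to 52.2% against the mean of the tissues (6505 higher and 5962 lower), from 46.6% to 55.2% against heart (5892 and 4776) and from 45.2% to 55.4% against muscle (6236 and 5019). After quantile normalization it went from 53.3% to 46.9% against brain (6314 and 7144).

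A gene was called liver-enriched where it was higher in liver than in each of brain, heart and muscle, with an adjusted p under 0.05 and a difference of at least 1 in all 3 comparisons. There were 2467 such genes, 14.4% of those tested. The mirror rule gave 2064 liver-depleted genes, 12.1%. More liver-enriched than liver-depleted genes lay far from the other tissues. Measured against the nearest tissue, 670 liver-enriched genes lay at least 4 log2 units above it and 230 at least 8, while 182 liver-depleted genes lay at least 4 below it and 5 at least 8. Background sets a floor under low levels, and a deficit is a bound wherever no liver array was well above background. That holds for 210 liver-depleted genes detected on all 9 other arrays. It also holds for any liver-depleted gene detected on no liver array and only part of the others, which that number leaves out. Among the 1571 liver-enriched genes that were well above background on all 12 arrays, heart was the nearest tissue for 654 (41.6%), muscle for 482 (30.7%) and brain for 435 (27.7%). For the 1133 liver-depleted genes measured on all 12 arrays, the nearest was brain for 417 (36.8%), heart for 371 (32.7%) and muscle for 345 (30.5%).

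**Figure D1:**
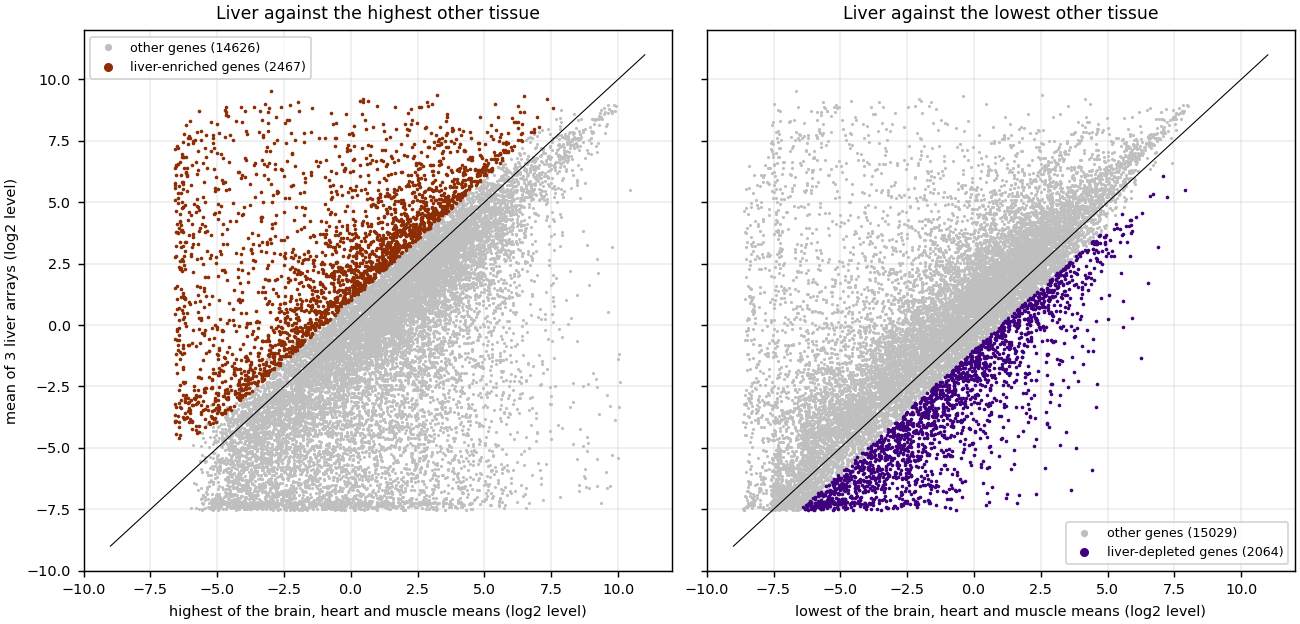
Mean level in 3 wild-type livers (vertical axes, log2 processed signal minus the array's 75th percentile) against the highest (left) and the lowest (right) of the brain, heart and muscle means, 1 point per tested gene, with the 2467 liver-enriched and 2064 liver-depleted genes coloured. The liver-enriched genes extend far above the diagonal on the left, and the liver-depleted genes lie below it on the right, closer to the line.

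On all 3 arrays of the tissue, 13695 genes were well above background for liver, 15856 for brain, 14555 for heart and 13305 for muscle. By this count detection reached fewer genes in liver than in brain or heart. The count needs all 3 arrays of a tissue, and the liver array of mouse E was dim. It had 49.4% of all probes well above background, against 61.1% and 62.1% for the livers of mice D and F. The heart arrays had 66.2%, 57.6% and 56.9%. The part of array brightness in this count was not tested. On all 12 arrays 11899 genes were detected. In liver alone, on 3 of 3 liver arrays and 0 of the 9 others, there were 165, of which 164 were liver-enriched. In the other tissues alone there were 217, of which 210 were liver-depleted, and 344 met this definition without the liver of mouse D. When the 3 arrays on which Alb was above background outside liver were left out, 266 genes were detected in liver alone, while the liver-enriched genes numbered 2469, of which 2375 were shared with the full set.

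The promoters of 6 of the genes described next are shown because they span the range of the results: Alb and Serpina1a as liver markers, Apoa1 and Cyp2d26 as the genes with the largest excess among those detected in liver alone and on all arrays, and Fabp3 and Eef1a2 as genes low or not detected in liver. The sequences are RefSeq reference sequence of the build GRCm38.p6, running 5′ to 3′ on the gene's strand from 250 bases before the start to 50 after it. Capitals mark matches to the motifs HNF1 (GTTAATNAT), HNF4 (CAAAGTCCA), C/EBP (TTGCNNAA), TATA box (TATAAA) and GC box (GGGCGG), searched on both strands.
Alb, chr5:90460620-90460919, forward strand: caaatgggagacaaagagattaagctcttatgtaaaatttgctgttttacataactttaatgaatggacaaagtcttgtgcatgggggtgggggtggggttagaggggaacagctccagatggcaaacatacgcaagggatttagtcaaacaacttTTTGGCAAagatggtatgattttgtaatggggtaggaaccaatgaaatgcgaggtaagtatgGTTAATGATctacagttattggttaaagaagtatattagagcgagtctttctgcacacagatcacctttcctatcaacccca
Serpina1a, chr12:103863570-103863869, reverse strand: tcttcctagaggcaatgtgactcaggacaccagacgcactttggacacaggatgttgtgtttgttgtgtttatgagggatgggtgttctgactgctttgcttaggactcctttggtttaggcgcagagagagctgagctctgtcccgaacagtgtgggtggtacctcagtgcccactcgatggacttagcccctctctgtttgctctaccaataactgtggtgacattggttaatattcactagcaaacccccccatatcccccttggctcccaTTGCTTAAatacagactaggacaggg
Apoa1, chr9:46228380-46228679, forward strand: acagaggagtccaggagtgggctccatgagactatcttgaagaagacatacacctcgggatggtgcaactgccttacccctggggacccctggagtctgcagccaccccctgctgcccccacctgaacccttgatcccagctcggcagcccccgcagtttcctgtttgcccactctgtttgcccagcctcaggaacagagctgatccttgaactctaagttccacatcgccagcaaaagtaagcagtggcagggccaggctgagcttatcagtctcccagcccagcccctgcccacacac
Cyp2d26, chr15:82794196-82794495, reverse strand: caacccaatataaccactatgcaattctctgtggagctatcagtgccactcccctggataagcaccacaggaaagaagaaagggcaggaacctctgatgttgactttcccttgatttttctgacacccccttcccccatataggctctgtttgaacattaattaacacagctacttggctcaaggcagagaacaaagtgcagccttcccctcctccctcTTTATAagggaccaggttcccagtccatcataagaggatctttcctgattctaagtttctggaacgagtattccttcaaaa
Fabp3, chr4:130308488-130308787, forward strand: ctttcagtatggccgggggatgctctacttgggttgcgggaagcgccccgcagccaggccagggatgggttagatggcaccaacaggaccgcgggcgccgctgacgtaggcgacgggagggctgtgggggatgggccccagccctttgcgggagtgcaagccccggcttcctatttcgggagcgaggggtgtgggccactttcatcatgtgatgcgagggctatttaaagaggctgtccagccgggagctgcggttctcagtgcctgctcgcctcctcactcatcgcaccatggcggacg
Eef1a2, chr2:181156966-181157265, reverse strand: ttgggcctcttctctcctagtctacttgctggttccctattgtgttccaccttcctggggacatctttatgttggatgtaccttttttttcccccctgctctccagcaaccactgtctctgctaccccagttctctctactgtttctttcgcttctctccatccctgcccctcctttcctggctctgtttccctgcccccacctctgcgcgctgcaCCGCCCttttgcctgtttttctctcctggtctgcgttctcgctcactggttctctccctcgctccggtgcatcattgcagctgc
In the Alb promoter the HNF1 match GTTAATGAT begins 32 bases before the start and the C/EBP match TTTGGCAA 94 bases before it. The Serpina1a window holds a C/EBP match, TTGCTTAA, beginning at base 25 after the start, the Cyp2d26 window a TATA match on the other strand, TTTATA, 31 bases before it, and the Eef1a2 window a GC box on the other strand, CCGCCC, 34 bases before it. None of the 5 letter strings occurs in the Apoa1 and Fabp3 windows. The windows of Alb, Serpina1a, Apoa1 and Cyp2d26 hold 1 to 4 CpG dinucleotides, that of Eef1a2 holds 8 and that of Fabp3 holds 22.

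Across genes the letters of these windows differed between the sets, as a description with no test. Promoters were matched by symbol for 1925 of the 2467 liver-enriched genes, 1583 of the 2064 liver-depleted genes and 13512 of the 17093 tested genes. Each gene counted once, as a match where any of its windows held the letters. The HNF1 letters stood in 2.75% of liver-enriched and 0.442% of liver-depleted promoters, against 0.71% of all tested ones. Of the 524 liver-enriched genes with a promoter that lay at least 4 log2 units above every other tissue, 6.87% held them. The HNF4 letters stood in 1.4%, 0.442% and 0.592% of the 3 sets, and in 3.24% of those 524. A C/EBP match was found in 15.6% of liver-enriched, 10.8% of liver-depleted and 11% of all tested promoters, and a TATA match in 15.6%, 10.6% and 11%. The GC box went the other way, with 52%, 66.4% and 60.5%, and with 29% among the 524. The median number of CpG dinucleotides, counted in the window of a gene that held the most, was 13 in liver-enriched and 21 in liver-depleted genes. It was 19 in all tested genes and 5 among the 524. Over all 27025 genes with a RefSeq promoter the shares were 0.94% for HNF1, 0.555% for HNF4, 12.2% for C/EBP, 15.7% for TATA and 38.2% for the GC box.

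Of the genes measured on all 12 arrays, 10 are described by their excess over the nearest tissue. Cyp2d26, a cytochrome P450, had levels of 8.49, 9.30 and 8.82 in liver, and its highest level elsewhere was -2.48, in the heart of mouse F. The groups were far apart, and liver exceeded heart 2871-fold (difference from the mean of the 3 tissues 11.83, SE 0.25, adjusted p = 3.44e-11). Hamp2, a relative of the iron hormone hepcidin, followed at 2440-fold with liver levels of 8.36, 9.04 and 7.99. Cyp3a11, a major drug-metabolising P450, lay 2049-fold above muscle, with levels of 7.60, 7.96 and 8.14 in liver and -3.77 to -3.00 on the 9 other arrays. Slc27a5, which links bile acids and very long chain fatty acids to coenzyme A, lay 1629-fold above its nearest tissue. The rest of the 10 were Cyp2c70 (1228-fold), which hydroxylates bile acids in mice, Aldh8a1 (904-fold) and Haao (767-fold), both of tryptophan breakdown, Asgr2 (778-fold), a subunit of the asialoglycoprotein receptor, the fatty acid hydroxylase Cyp4a31 (652-fold) and Gnmt (650.5-fold), which uses up methyl groups from S-adenosylmethionine. Cyp4a31 was the most variable of them, with 6.24, 4.90 and 7.19 in the 3 livers, and lay 992-fold above its nearest tissue without the liver of mouse E.

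Of the genes detected in liver alone, Apoa1, the main protein of high-density lipoprotein, led. Its levels were 7.34, 7.62 and 7.39 in liver and -7.89 to -6.16 elsewhere, where it was never well above background, so liver exceeded every other tissue at least 3363-fold. The carboxylesterase Ces2a followed with liver levels of 6.89, 7.02 and 6.57 and at least 2184-fold. Next came Sult2a1 (at least 2181-fold), which sulfates steroids and bile acids, Lect2 (at least 1866-fold), a secreted hepatokine, and the glucuronosyltransferases Ugt2b36 (at least 1778-fold) and Ugt2b34 (at least 1596-fold). Cyp2c39 (at least 1691-fold), 1300017J02Rik (at least 1633-fold), Mettl7b (at least 1407-fold) and Cyp3a25 (at least 1329-fold) completed the 10. The Cyp, Ugt, Sult, Ces, Mup and Serpina1 genes are families of close copies, whose probes may bind each other's transcripts, so which member gave a signal is uncertain.

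**Figure D2:**
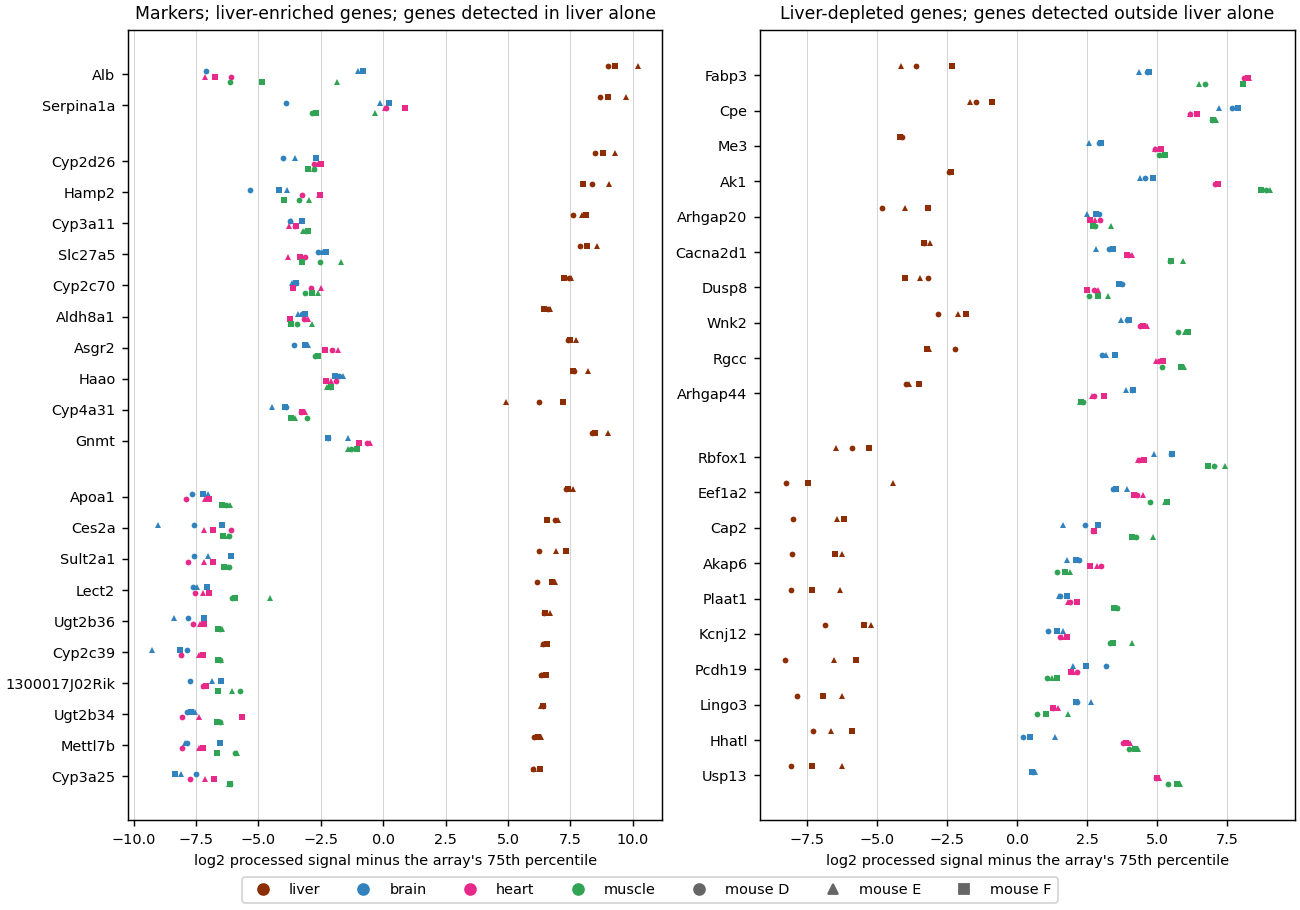
Levels (horizontal axes, log2 processed signal minus the array's 75th percentile) on each of the 12 arrays, coloured by tissue and shaped by mouse. Left: Alb and Serpina1a, the 10 liver-enriched genes with the largest excess among those measured on all arrays, and the 10 leading genes detected in liver alone. Right: the mirror choices for liver-depleted genes and genes detected outside liver alone. In each row the liver points are separated from all 9 others, and the Alb row shows the 2 brain arrays and 1 muscle array above the rest.

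Secreted plasma proteins stood apart as a group. All 47 tested members of a list of transport proteins and protease inhibitors were liver-enriched (median difference 10.62), and so were all 43 of complement and coagulation (10.46). Lists here were chosen with knowledge of liver biology and with earlier results of these data known, and a gene measured only in liver could pass the filter only by being high there. Serpina3k, a serpin of the antichymotrypsin kind, had the largest difference at 15.00, and Fgg and Fgb, the gamma and beta chains of fibrinogen, had 14.71 and 14.31. The smallest were Trf (4.28), which encodes transferrin, and Pros1 (2.31), the anticoagulant protein S. Ttr, the carrier of thyroid hormone and retinol-binding protein, had liver levels of 8.27, 9.19 and 8.57, brain levels of 6.74, 6.93 and 5.32, and heart levels of -4.11 to -3.91. Brain thus came within 5.08-fold of liver for Ttr, and within 6.31-fold for Trf. Of 24 apolipoprotein and lipoprotein genes 23 were liver-enriched, from Apoa1 (14.42) down to the HDL receptor Scarb1 (2.84). The exception was Lpl, the lipase that frees fatty acids from lipoproteins at vessel walls, which was lower in liver by the mean of the tissues (-4.63). Lpl levels were 0.42, -0.17 and -0.17 in liver, which overlapped the brain values of 0.30, -0.12 and -0.08 and lay below 8.04 to 8.23 in heart and 5.23 to 6.30 in muscle.

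Of the 29 tested liver transcription factors, 28 were higher in liver and 20 were liver-enriched. Hnf4a, the nuclear receptor at the centre of the network, had levels of 6.85, 7.29 and 7.17 in liver and -8.09 to -4.70 elsewhere, where it was well above background on 2 brain arrays only. Creb3l3 (10.94), Foxa2 (10.11) and the xenobiotic sensor Nr1i2 (9.88) followed. The other 8 higher ones were not above every other tissue by the rule. Gata4 was at 1.80, 1.25 and 1.29 in liver, 3.38 to 3.78 in heart, and -7.63 to -5.34 in brain and muscle. Esr1, the estrogen receptor alpha, had 1.49, 1.47 and 1.57 in liver and 2.05 to 2.74 in muscle. Only Rora did not pass the test (0.07).

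The genes that dispose of nitrogen were high in liver. All 8 urea cycle genes were higher in liver, and 7 were liver-enriched. Arg1, whose arginase releases urea, differed by 13.86, Otc by 13.22 and Cps1, which fixes ammonia, by 12.37. The exception was Slc25a13, the aspartate-glutamate carrier, at 5.20, 5.17 and 5.28 in liver and 4.73 to 4.84 in heart. All 44 genes of amino acid breakdown were higher and 43 were liver-enriched (median 9.24), led by Hpd (14.76) of tyrosine breakdown, Mat1a (14.25), which makes S-adenosylmethionine in adult liver, and Agxt (14.18), which removes glyoxylate. The smallest was Sdsl (1.81), a relative of serine dehydratase.

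For glucose, the liver's own isoenzymes were high and those of other tissues were low. All 19 hepatic genes were higher in liver (16 liver-enriched, median 7.16), and 18 of 19 genes of the other tissues' forms were lower (8 liver-depleted, median -4.33). The glucose carrier Slc2a2 had 5.86, 6.25 and 6.21 in liver and was not well above background elsewhere (at least 1325-fold), whereas the insulin-responsive carrier Slc2a4 had 6.84 to 7.74 in heart and muscle. Slc2a4 was uneven among the livers, at -1.77, 1.92 and -2.12, and so overlapped the brain values of -1.19 to -0.84. Pklr, the liver pyruvate kinase, had levels of 1.81, 3.11 and 1.67 in liver and -7.42 to -5.96 elsewhere, while Pkm, the kinase of muscle and brain, had 1.27, 1.11 and 0.54. Pkm levels were 5.53 to 5.71 on brain arrays, 5.62 to 5.77 on heart arrays and 7.46 to 7.70 on muscle arrays. The gluconeogenic genes Fbp1 (13.14), Pck1 (10.13) and G6pc (9.66) were liver-enriched. Pgam2 (-9.99), the muscle phosphoglycerate mutase, and Pygm (-7.87), the muscle glycogen phosphorylase, were lowest. Aldoc was the exception, higher in liver by the mean (2.53), with 3.52, 3.94 and 3.70 in liver between 7.35 to 7.79 in brain and -2.86 to -0.33 in heart and muscle.

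Ketone bodies are made mainly by the liver and burned elsewhere. Of the 8 tested ketone genes 7 were higher in liver (4 with slide as a block), 3 of them liver-enriched, and 1 was lower. Oxct1, the transferase that starts their use, had 0.47, 0.29 and -0.0027 in liver. The lowest values outside liver were the brain's, 4.90 to 5.19, with 7.04 to 7.41 for heart and 6.49 to 6.81 for muscle, and liver lay 27.1-fold below brain (adjusted p against the mean of the tissues 4.5e-11). Bdh2, a cytosolic dehydrogenase, was among the higher genes (4.58). Of 22 fatty acid transport and activation genes 15 were higher, led by Fabp1 (13.39), the liver fatty acid-binding protein, and Acsm1 (12.18). The 6 lower genes were Fabp3 (-9.97), Acsl6 (-8.06), Cpt1b (-5.47), Cpt1c (-3.51), Fabp4 (-1.62) and Slc27a1 (-0.49), which include the heart, brain and fat forms. Cd36 (-0.14) did not pass the test. Gamt, which completes creatine synthesis, was liver-enriched at 5.10 (17.1-fold above muscle). The creatine carrier Slc6a8 was liver-depleted (-5.27), and the creatine kinases Ckm (-8.72) and Ckmt2 (-9.68) were lower by the mean of the tissues.

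**Figure D3:**
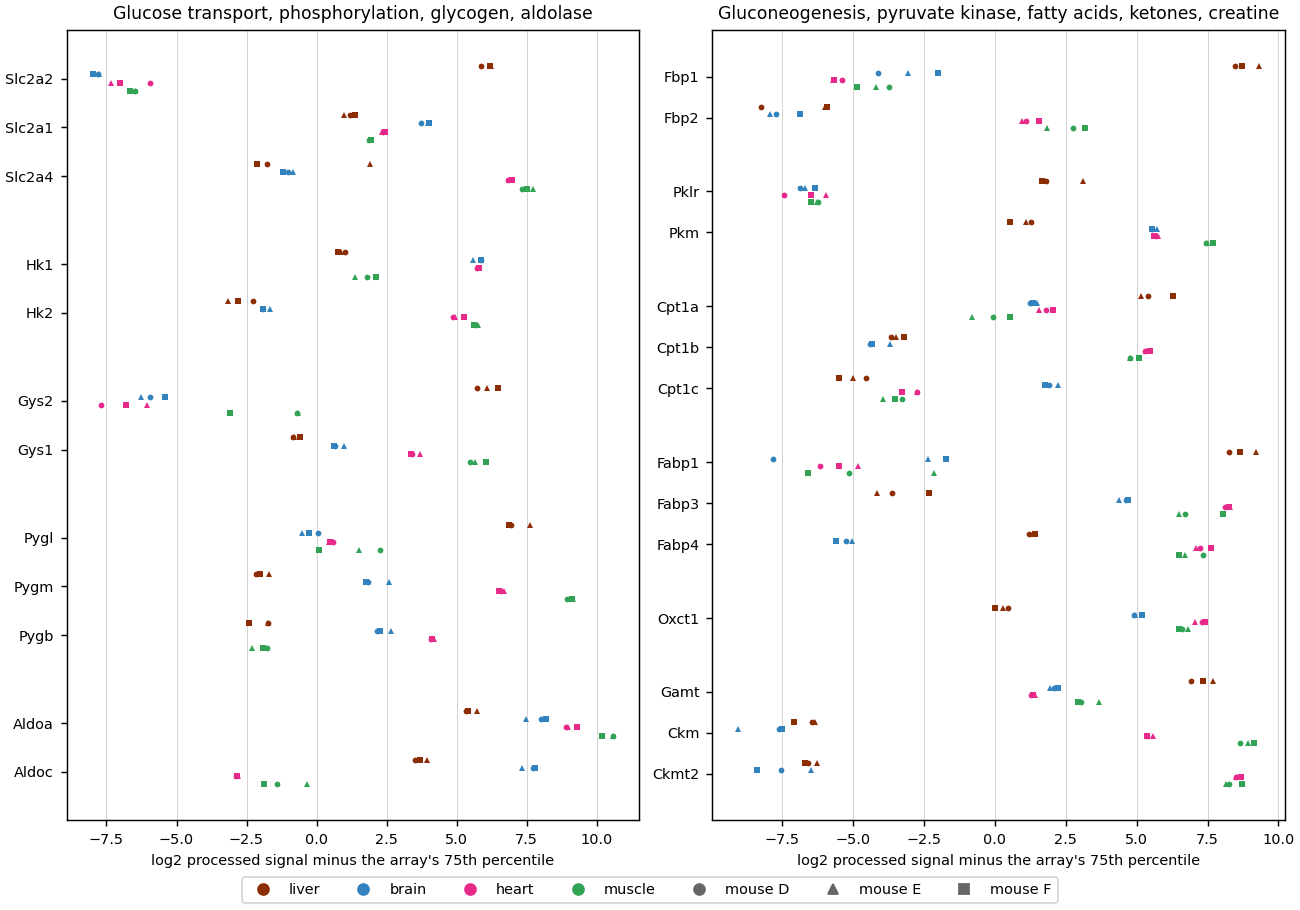
Levels (horizontal axes, log2 processed signal minus the array's 75th percentile) of tissue forms of the same step on each of the 12 arrays, coloured by tissue and shaped by mouse. Slc2a2, Fbp1 and Gamt have their liver points at the right, whereas Pygm, Pkm, Fabp3 and Oxct1 have them at the left. Levels are comparable within a row, not between rows.

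Bile acid synthesis and transport followed the same direction, with 23 of 25 genes higher and 21 liver-enriched (median 7.31). Cyp7a1, the rate-limiting enzyme of bile acid synthesis, had 4.17, 3.77 and 4.71 in liver and was not well above background elsewhere (at least 358-fold). The bile salt export pump Abcb11 differed by 13.46. Slc51a, a subunit of the basolateral bile acid exporter, was lower (-1.69), and the chosen probe of Slc10a1, the hepatocyte's bile acid importer, did not pass the test, as described with the other probes below. Among the P450 genes of families 1 to 4, 50 of 54 tested were higher and 45 liver-enriched (median 9.76), with Cyp2c50 (14.88) and Cyp2c54 (14.13) the farthest. Cyp1b1 (-1.19) and Cyp2s1 (-1.57), P450s mainly of other organs, were lower. Of the conjugating enzymes and esterases, 52 of 54 were higher and 46 liver-enriched (median 6.48), and Gstm5 (-1.61) was liver-depleted. Peroxisomal genes were higher in 36 of 38 cases with smaller differences (33 liver-enriched, median 2.75). Uox (13.05), which breaks down uric acid in mice, and Hao1 (10.45) led them, while the shared import factor Pex13 differed by 1.38 and the carnitine acetyltransferase Crat was lower (-2.70).

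Of 28 tested hepatokines and hormone genes 26 were higher and 23 liver-enriched. Hamp, which encodes the iron hormone hepcidin, had 8.38, 9.13 and 8.52 in liver and differed from the mean of the tissues by 13.95. Igf1 had 6.79, 6.79 and 6.86 in liver against at most 1.46 elsewhere (76.5-fold above muscle), an SD of 0.04 over the 3 livers. Igf2, the fetal growth factor, was liver-depleted, at -5.41, -6.28 and -5.84 in liver and -3.65 to -0.62 elsewhere, and 1 of the 3 liver arrays was well above background. Of 25 genes of iron, heme, copper and selenium handling, 17 were higher and 3 lower. Tfr2, the transferrin receptor with which hepatocytes sense iron, had levels of 6.49, 6.98 and 6.71 in liver and lay 199.6-fold above brain. The ubiquitous receptor Tfrc went the other way, at -1.27, -0.74 and -1.93 in liver and -0.18 to 1.66 elsewhere (2.35-fold below brain). Fth1 (-0.02), Mt1 (0.67) and Mt2 (0.62), the ferritin heavy chain and the metallothioneins, did not pass the test.

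All animals were females, and the 14 tested genes known to be higher in female mouse liver were all liver-enriched (median 11.44). Cyp3a16 had 6.73, 7.49 and 7.66 in liver and lay at least 3017-fold above muscle, and Cyp2b13 (12.64), Sult2a1 (13.64) and Sult3a1 (10.73) were likewise high. Of 14 genes known as male-predominant, 9 were higher in liver, 3 lower and 2 not called, with 8 liver-enriched (median 2.58). Mup20, a urinary pheromone protein, had 6.75, 8.46 and 8.16 in liver, and Moxd1 was liver-depleted (-4.79). No male was measured, so no difference between the sexes is given here. The genes of both ends of the liver lobule were high: 18 of 19 periportal genes (16 liver-enriched, median 7.62) and 17 of 20 pericentral genes (15 liver-enriched, median 4.88). Glul, which marks the innermost pericentral hepatocytes, differed by 0.94 and the Wnt targets Axin2 (0.27) and Znrf3 (0.21) did not pass the test. Of 15 fetal and tumour liver genes, 6 were higher and 8 lower, beside 35.5% and 42.6% of all tested genes. Of the 15, 3 were liver-enriched and 7 liver-depleted, beside 14.4% and 12.1%. Afp, the fetal counterpart of albumin, was liver-enriched by 3.19, at least 2.48-fold above muscle, and H19 (-5.35) and Bex1 (-8.52) were lower.

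**Figure D4:**
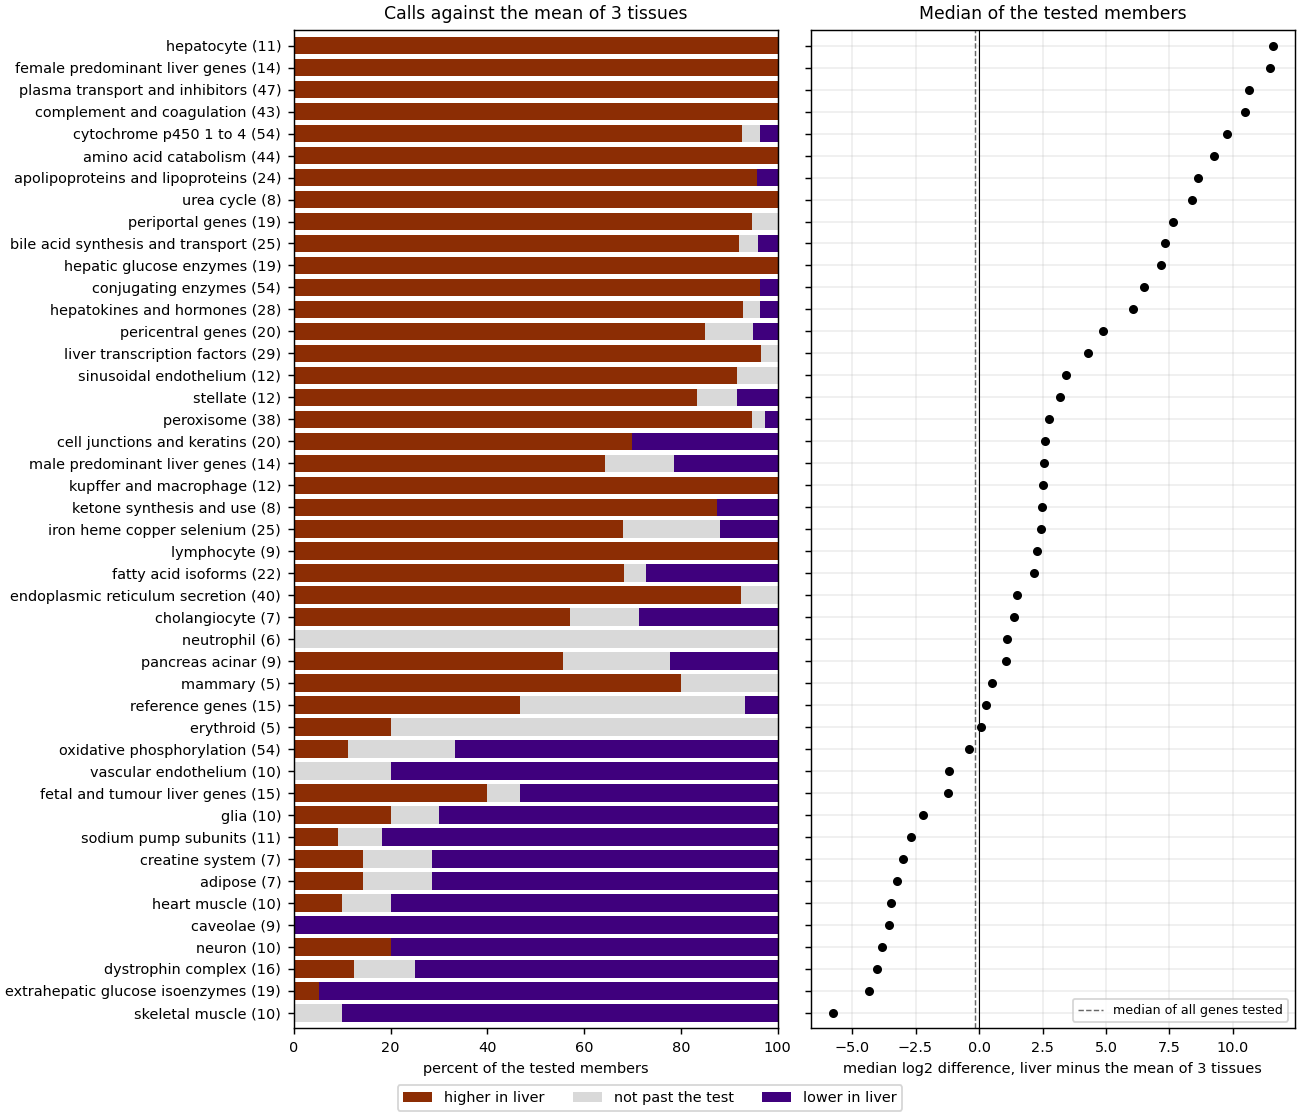
Gene lists ordered by median difference, with the number of tested members in parentheses. Left: percent of members higher in liver, lower in liver or not past the test against the mean of the 3 other tissues. Right: median log2 difference of each list, with the median of all 17093 genes tested (-0.16) as a dashed line. Lists of hepatocyte function lie at the top, and lists of muscle, brain, caveolae and other tissues' glucose enzymes at the bottom.

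Cells other than hepatocytes were also visible. All 12 Kupffer cell and macrophage markers were higher in liver and 5 were liver-enriched, and with slide as a block 6 of the 12 were called. Those 5 included Clec4f, the Kupffer cell lectin, at 3.92, 3.67 and 3.44 in liver and -7.54 to -2.59 elsewhere, and Cd5l (9.34), whereas the general macrophage genes Csf1r (0.73) and C1qb (0.96) had smaller differences. Of 12 sinusoidal endothelial markers 11 were higher and 7 liver-enriched, with Clec4g at 9.33 and Stab2 at 5.13. In contrast 8 of 10 markers of ordinary vascular endothelium were lower by the mean of the tissues and none was higher, including Cav1 (-4.09) and Vwf (-1.83). With slide as a block, or with the array median as the scale, 5 were lower. Only 2 were liver-depleted. Their summed signal in liver (14.18 to 14.51) lay within that of brain (13.66 to 15.04). Heart had 198.3 to 248 and muscle 131.3 to 190.4. Of 12 stellate cell markers 10 were higher, among them Colec10 (9.35) and Lrat (7.10), which stores vitamin A. Des (-5.07), the filament protein desmin that striated muscle makes in quantity, was lower. Bile duct markers were mixed, with 4 of 7 tested higher and 2 lower, but 1 higher and none lower with slide as a block. Over all tested genes 35.5% were higher and 42.6% lower, so short mixed lists such as this one do not stand apart. All 9 tested lymphocyte markers were higher, with median 2.27, though with slides as a block 3 of 9 were called. None of the 6 tested neutrophil markers was called, with differences of -0.72 to 1.82. The pancreas list had 5 of 9 tested members higher and 2 lower, or 3 and 1 with slide as a block (summed signal 9.46 to 10.5 in liver against 0.949 to 2.25 elsewhere), with Amy2a5 (4.04) and Ctrb1 (3.08) liver-enriched and 4 of its 12 members with probes well above background on no liver array. The part of pancreatic tissue in these values was not tested. The adipose list summed to 0.674 to 1.89 in liver and 71.9 to 329.7 in muscle, and 5 of 7 tested members were lower in liver. Fat in the muscle samples was not tested as a part of any value.

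Among the liver-depleted genes, Fabp3, the fatty acid-binding protein of heart and muscle, had the largest deficit of those measured on all 12 arrays. The livers had -3.61, -4.14 and -2.31, the brains 4.64, 4.36 and 4.69, the hearts 8.10, 8.28 and 8.26, and the muscles 6.72, 6.48 and 8.05. Liver lay below every other array, 242-fold below brain, the nearest tissue (adjusted p against the mean of the tissues 2.14e-09). Cpe, a carboxypeptidase that trims peptide hormones, had -1.45, -1.68 and -0.89 in liver and 6.16 to 7.88 elsewhere, 195-fold below heart. Another Cpe probe gave nearly the same means. Me3 (126-fold), a mitochondrial malic enzyme, and Ak1 (126-fold), the cytosolic adenylate kinase, were both close among the 3 livers, with Me3 at -4.09, -4.17 and -4.19 and Ak1 at -2.44, -2.34 and -2.36. The others were Arhgap20 (107-fold) and Arhgap44 (67.5-fold), which are named as GTPase-activating proteins, the calcium channel subunit Cacna2d1 (86.6-fold), the MAP kinase phosphatase Dusp8 (76.5-fold), the kinase Wnk2 (70.3-fold) and Rgcc (67.6-fold), a regulator of the cell cycle.

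Genes detected on all 9 other arrays and no liver array were led by Rbfox1, a splicing regulator of neurons and muscle, at 4.32 to 7.41 outside liver and at least 749-fold above liver. Its liver signals, -5.90, -6.45 and -5.29, were not well above background. Another Rbfox1 probe was well above background on 2 of the 3 liver arrays. Its mean was -4.56 in liver against 2.77 to 5.42 in the other tissues. Eef1a2, the translation elongation factor of neurons and muscle, lay at least 454-fold above liver with 3.43 to 5.34 outside it and -8.25, -4.43 and -7.45 within it. The rest were Cap2 (at least 183-fold), an actin regulator, Akap6 (at least 117-fold), an anchor of protein kinase A, Plaat1 (at least 111-fold), the potassium channel Kcnj12 (at least 95.6-fold), Pcdh19 (at least 86.8-fold), a protocadherin, Lingo3 (at least 83.3-fold), Hhatl (at least 58.5-fold) and the deubiquitinase Usp13 (at least 54.6-fold).

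Most genes of the dystrophin complex, caveolae and the sodium pump were lower in liver by the mean of the 3 tissues. Of 16 dystrophin complex genes 12 were lower and 7 liver-depleted (median -4.01), with Dmd, dystrophin itself, at -7.48 and Ank2 at -5.43, whereas Sntb1, a syntrophin, was liver-enriched (1.69). All 9 caveolar genes were lower and 4 liver-depleted (median -3.53), down to the muscle caveolin Cav3 (-9.42). By summed signal the caveolar genes were higher in liver (26.15 to 30.17) than in brain (20.04 to 23.64). Heart and muscle had 245.8 to 296.6. Cav1 was on no liver array well above background and lay at least 2.43-fold below brain. Of 11 sodium pump subunits 9 were lower (median -2.69), though the summed signals of liver (275.4 to 353.9) and brain (299.6 to 386.2) overlapped. Among them the beta subunit Atp1b2 differed by -7.72 and lay 34.1-fold below heart. Epithelial junction and keratin genes ran the other way, with 14 of 20 higher and 11 liver-enriched. Krt18 had 6.55, 6.99 and 6.60 in liver and at most 0.39 elsewhere. The gap junction genes Gjb1 (7.40) and Gjb2 (9.57) were liver-enriched while Gja1 (-4.59), the connexin of heart and astrocytes, was liver-depleted.

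Genes for organelles common to all cells differed less. Of 40 genes of protein entry and folding in the endoplasmic reticulum, 37 were higher in liver and none lower (21 liver-enriched, median 1.51), led by P4hb at 6.47, 6.56 and 6.54 in liver against 1.83 to 3.06 elsewhere. Of 54 oxidative phosphorylation genes, 36 were lower by the mean of the tissues and 6 higher, with median -0.39 against the -0.16 of all genes. Only 2 were liver-depleted. Their summed signal in liver (4747 to 6287) lay between that of brain (2264 to 2971) and those of heart and muscle (11020 to 13040). The split of calls depended on scaling: 47 lower and 2 higher after quantile normalization, 15 and 7 with the array median as the scale, and 13 and 3 with slide as a block. Clear of that range were the subunits that striated muscle uses, Cox6a2 (-9.85), Cox8b (-9.91) and Cox7a1 (-4.64), whose counterparts Cox6a1 (1.43) and Cox8a (1.25) were higher in liver. Of 15 common reference genes 7 were higher, 1 lower and 7 not called (6 higher and 7 lower after quantile normalization, 3 higher and 1 lower with slide as a block). The shares over all tested genes were 35.5% higher and 42.6% lower. Gapdh (-0.05) and Actb (0.10) were not called, while B2m, the light chain of MHC class I, was liver-enriched at 7.97, 8.61 and 8.22 against 4.06 to 6.22 elsewhere.

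The choice of probe mattered for some genes. Each gene was represented by its probe with the highest mean over 24 arrays, and 4609 tested genes had more than 1 usable probe. Of the 553 of these called liver-enriched, 94 had another probe that was not higher in liver than in the highest other tissue. Conversely 7 genes were not liver-enriched by the chosen probe although another probe lay at least 4 log2 units above every other tissue. Slc10a1 is the clearest. By its chosen probe the means were 8.70 for liver, 7.87 for brain, 8.97 for heart and 9.87 for muscle. Its other probe had a liver mean of 6.0 and was well above background on no other array (at least 1232-fold). The other 6 were Pigr (at least 1557-fold by the other probe), Hsd17b13 (at least 965-fold), Pbld1 (303-fold), Cutal (85.7-fold), Lifr (46.9-fold) and Scd3 (24.9-fold). Which probe reports the mature transcript was not tested. Serpina1a was liver-enriched by both of its probes, 441-fold by the chosen and 3901-fold by the other. The muscle gene Mylpf (0.81, not called by the chosen probe) also had probes that disagreed, and the neuronal genes Syt1 (3.08) and Rbfox3 (1.10) were called higher in liver against the rest of their list.

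The spread between the 3 wild-type livers differed among genes. The median SD over the 3 mice was 0.22 for liver-enriched genes, 0.34 for liver-depleted genes and 0.24 for all tested genes, while 34 of the 2467 liver-enriched and 141 of the 2064 liver-depleted genes had a range of over 2. The widest ranges among the liver-enriched genes were those of Serpina4-ps1, a serpin pseudogene, with 2.82, -0.01 and -2.20, and Pax2 with -0.72, 2.53 and 3.67. Cyp8b1, which sets the ratio of the primary bile acids, had -1.61, 0.80 and 1.49, Mup5 had 4.50, 7.08 and 7.32, and Igfbp1, an insulin-repressed binding protein of IGFs, had 4.06, 5.04 and 2.36. Jchain, the joining chain of IgA and IgM from plasma cells, had 3.78, 1.23 and 1.45. No mouse was the highest in all of these genes.

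Slide was then taken into account. With slide as a block over all arrays, 2146 genes were liver-enriched, of which 2011 were shared, and 1492 liver-depleted, of which 1390 were shared. Against muscle, which liver meets only through brain and heart, 3352 genes were then higher and 3499 lower.

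The same rule gave 2371 liver-enriched and 1871 liver-depleted genes on the 12 arrays of the knockin mice. Only the 17093 genes that passed the detection filter in the wild-type mice were tested there. Of the wild-type liver-enriched genes 2203 (89.3%) met the rule again, and of the wild-type liver-depleted genes 1653 (80.1%). These made up 92.9% and 88.3% of the knockin sets, which could hold no gene that failed the filter in the wild-type mice. All 2467 and all 2064 kept the sign of the difference from the mean of the 3 tissues, and none met the opposite rule. Alb had levels of 10.05, 9.74 and 9.69 in the knockin livers A, B and C, and Cyp2d26 9.21, 9.19 and 9.13. Fabp3 was at -3.19, -3.72 and 1.65, the liver of mouse C standing far above the other two, and without the brain and liver of that mouse 2081 and 1598 genes met the rule again. The change of the liver difference with genotype, tested as an interaction over all 24 arrays, was called for 0 of 17093 genes with limma (868 at an unadjusted p under 0.05, smallest adjusted p = 0.0662), and for 0 (812, 0.215) without those arrays of mouse C. Knockin against wild-type liver directly gave 0 higher and 0 lower of 14084 genes tested (0% and 0%), where 1652 had an unadjusted p below 0.05 and the smallest adjusted p was 0.358. The median of that difference was -0.011 over 2466 liver-enriched genes and 0.22 over 1246 liver-depleted genes, beside 0.040 over all genes. Tested here were genes detected on all 3 livers of at least 1 genotype. The sets were chosen on the same 3 wild-type livers, which can by itself shift these medians, so no effect of genotype is read from them. A p that misses the threshold with 3 mice a group leaves room for differences of moderate size.

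**Figure D5:**
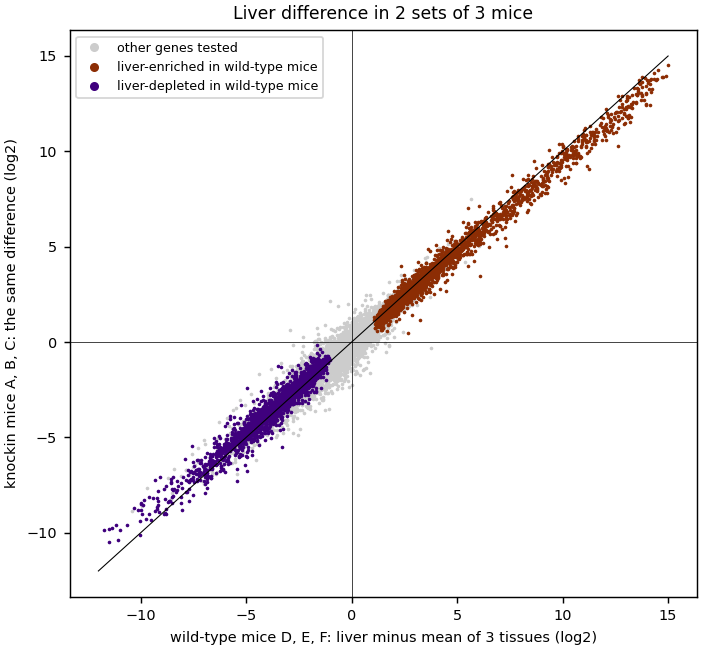
Liver minus the mean of brain, heart and muscle (log2) in the wild-type mice D, E and F (horizontal axis) and in the knockin mice A, B and C (vertical axis), 1 point per tested gene, with liver-enriched and liver-depleted genes coloured by their wild-type call. All 2467 liver-enriched and all 2064 liver-depleted genes lie on the same side of 0 on both axes.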

How the data were processed

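RNA of liver, brain, heart and muscle was labelled with Cy3 and hybridised to Agilent arrays, 1 array per sample. Per the file headers, the authors scanned and quantified them with Agilent Feature Extraction 12.0.3.1, a design on mm9, and deposited the processed signal intensity of each spot, background-subtracted and detrended within the array. The series table, deposited by the authors, holds a score, a z-transform of the log signal of each feature within each array (r = 0.9992 to 0.9998 with the scanner values), and was used only as an alternative. No array had saturated spots.

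From the intensities, control spots and outlier flags were left out, spots of 1 probe were averaged, and the log2 signal minus each array's 75th percentile was taken. The files hold no gene names. RefSeq accessions were matched to a RefSeq gene table (GRCm38.p6), which named 28331 of 55681 probes (50.9%) and 21368 genes, each given its probe with the highest mean over 24 arrays. The 17093 genes that some tissue had well above background on each of its 3 arrays were tested with limma 3.58.1 in R 4.3.3 (lmFit with 1 mean per tissue over the 12 wild-type arrays, contrasts, eBayes, Benjamini-Hochberg over all genes tested). The fit was tested on simulated data. Tables and figures were made with Python 3.11.15, pandas 2.3.3, numpy 2.4.6 and matplotlib 3.10.9. An outlier spot leaves a probe without a value on that array, and the fit then uses the others. Precision is limited by the number of arrays.

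The members and the 45 gene lists were chosen with earlier results of these data known. Named are Alb, Serpina1a and Terf2ip, the 10 genes with the largest excess or deficit against the nearest tissue in each of 4 classes (enriched or depleted and measured on all arrays, detected in liver alone or outside liver alone), and within each list its extremes, the members opposite to most of it and tissue forms of 1 enzyme. Genes named for their other probes or for their spread over the livers were chosen after their values were seen. The tissues came from the same 3 mice, which pairs the arrays by design. The deviations of same-mouse arrays from their tissue means correlated at r = -0.248 to 0.326 (mean 0.0104, and -0.0056 between mice). Alternatives were other scalings, background correction, filters, probe summaries, array weights, a mouse block, a slide block, all 24 arrays, and each array left out. Some members of the lists are not reported here by name.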

Additional observations from a re-analysis of the deposited data

How the results depend on the processing

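Counts of higher and lower genes kept within 1.5 times of their reported values under other scalings, background correction, variance models, the mean of all probes, all 24 arrays and no filter. With only the 11899 genes measured on all 12 arrays, 4652 were lower than the mean of the tissues, 3677 lower than brain, 1574 liver-enriched and 1138 liver-depleted, since fewer genes were tested. With slide as a block, 4726 were lower than the mean of the tissues and 4145 lower than heart, with 3352 higher and 3499 lower than muscle, and the cause was not tested. Requiring a log2 difference of 2 left 1432 liver-enriched and 1024 liver-depleted genes. Leaving out 1 array at a time gave 2421 to 2486 liver-enriched and 1969 to 2132 liver-depleted genes. Genes detected in the 3 other tissues alone numbered 533 with at least 8 of 9 arrays and at most 1 liver, and 217 to 344 with 1 array left out, the most without the liver of mouse D. Those detected in liver alone numbered 266 without the 3 arrays named for Alb, an alternative chosen after seeing the data. With the mouse as replicate block, 6000 genes were higher and 7176 lower, and 2475 were liver-enriched and 2055 liver-depleted, 2462 and 2043 of them shared, and 10 of the 744 called list members lost their call. Terf2ip was 0.11 with slide as a block against -0.23 without, and passed the test at -0.31 after quantile normalization, -0.33 with normexp, -0.49 by the mean of its probes, -0.083 in z-score units and -0.37 without the liver of mouse D. Of the 744 called list members, 637 with slide as a block and 407 of 407 measured on all 12 arrays kept their direction and call. At most 8 changed sign under any alternative: after background correction with normexp these were Atp5c1, Atp5d, Cyc1, Rbfox3, Rpl13a, Sdhd, Sec61g and Wfdc18, 3 of them called. The median of all genes was 0.07 with array medians as the scale and -0.23 after quantile normalization.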

Other observations

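Gene families named by symbol alone, chosen after the report's lists, divided unevenly between the sets. Of 81 tested cytochrome P450 genes 63 (77.8%) were liver-enriched and none liver-depleted, against 14.4% and 12.1% of all tested genes. Serpins had 25 of 39 liver-enriched, aldehyde dehydrogenases 13 of 21, and solute carriers 90 of 341 (26.4%) with 45 (13.2%) liver-depleted. Families of excitable and adhesive membranes went the other way: 21 of 90 potassium channel genes (23.3%), 9 of 24 calcium channel subunits (37.5%) and 16 of 43 protocadherins (37.2%) were liver-depleted, with 5, 0 and 1 liver-enriched. Zinc finger genes named Zfp had 59 of 362 (16.3%) liver-depleted and 15 liver-enriched. Ribosomal proteins (1 and 2 of 79) and proteasome subunits (4 and 1 of 44) had few in either set. Members of a family can share probes' targets, so these counts are descriptions.

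The liver of mouse E stood above those of D and F in genes of fat synthesis, picked after their values were seen. Fasn, fatty acid synthase, had 3.16, 5.59 and 3.48. Acly, which supplies acetyl-CoA, had 6.46, 8.37 and 6.42, the elongase Elovl6 4.75, 7.17 and 4.71, and the malic enzyme Me1 5.27, 7.01 and 5.39. Mouse E exceeded the mean of the other two by 2.27 for Fasn, 1.93 for Acly, 2.44 for Elovl6, 1.68 for Me1, 1.61 for Acaca, 2.32 for Pnpla3 and 2.98 for Pnpla5, beside a median of 0.082 over the liver-enriched genes and 0.19 over the 937 of them with a liver mean of at least 4. After quantile normalization the same excesses were 1.95, 1.78, 2.16, 1.42, 1.29, 2.20 and 2.85. The excess of Alb went from 1.04 to 0, but that scaling gives equal ranks equal values, so no contrast is drawn from it. Srebf1, which encodes the factor that drives these genes, exceeded by 0.35 and Slc2a4 by 3.86. This is 1 animal on the dimmest liver array, with no test, and the feeding state at collection is not given in the sources used here.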
